A study of Mus musculus with 6 samples.

Results

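The genes described here are 9 components of the machinery that releases zymogen granules from pancreatic acinar cells, namely Rab3d, Rab27a, Rab27b, Vamp8, Vamp2, Stx3, Snap23, Stxbp2 and Syt7. They were chosen by symbol, and all 9 were listed among the 55367 genes counted in each library. RNA was measured in 6 mouse libraries of pancreatic acinar cells, each made from 300 GFP-positive cells sorted by flow cytometry and prepared by a modified Smart-seq2 protocol. All 6 belong to 1 untreated group of the genotype Pdx1-Cre; Klf5-mCherry-CreERT2, in which the Pdx1 promoter drives Cre in the pancreatic lineage. The labels give no strain, sex or age, and the genotype names no GFP reporter. Nor do they say that the replicates are different animals, so the p-values given here measure only the spread between these samples, which may be technical. The deposited names carry a further number with no stated meaning, which divides the libraries into set B (replicates 4 to 6) and set A (replicates 1 to 3). Because there is 1 group, the comparisons that can be made are between related genes within a library, across libraries, and between the 2 sets as a possible batch.

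Acinar cells store digestive enzymes in zymogen granules beneath the apical membrane and release them when secretagogues such as cholecystokinin raise cytosolic calcium. Small GTPases of the Rab family on the granule membrane recruit effectors for docking. Fusion follows when a vesicle SNARE (a VAMP) pairs with a syntaxin and a SNAP-25 type SNARE on the target membrane, with a Sec1/Munc18 protein guiding the assembly and a synaptotagmin sensing calcium.

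The libraries held 4670819 to 7072270 counts in total, and the 9 genes together took 393 to 718 of them. Scaled to the library total (CPM), these were 86.8, 84.1 and 87.8 CPM in set B, against 101.8, 105.0 and 96.4 CPM in set A. Per total without ribosomal RNA the order turned, with 216.8, 215.1 and 219.6 CPM in set B, against 164.6, 181.0 and 181.3 CPM in set A. Each gene's share of a library is therefore set by few reads, and intervals on such counts cover counting error only, since PCR copies were not marked with molecular identifiers. All 10 acinar marker genes exceeded the background in every library, but the libraries were not alike. Ribosomal RNA took 59.9% to 60.9% of counts in set B and 38.2% to 46.8% in set A, and 6 enzyme genes summed to 110800 to 176100 TPM (counts per length, scaled to the library) in set B and 286500 to 329500 TPM in set A. Islet markers summed to 49.95 to 2240 TPM in set B and 10.1 to 40.5 TPM in set A, with Iapp at 0 in all 6 libraries, which cannot be read because its exons lie inside another counted gene. Background was measured over 1595 olfactory and vomeronasal receptor genes, which acinar cells are not known to use. It was 54.0, 352 and 116 counts per Mb of gene span in replicates 4, 5 and 6 of set B, against 27.0, 28.1 and 39.5 in replicates 1, 2 and 3 of set A. Replicate 5 had the highest background and the fewest counts.

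Levels are given as TPM, computed here from the deposited counts and the merged exon length of each gene. Of the 9 genes, 7 averaged 1 TPM or more and 2 averaged 5 TPM or more, with a median of 2.31 TPM. Over all 21962 protein-coding genes the shares at those levels were 32.3% and 6.04%, and the median was 0.491 TPM. Rab3d and Vamp8 stood at the top of the group, each above 97.9% of protein-coding genes, while Syt7 stood at the bottom, at the 53.8th percentile.

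**Figure D1:**
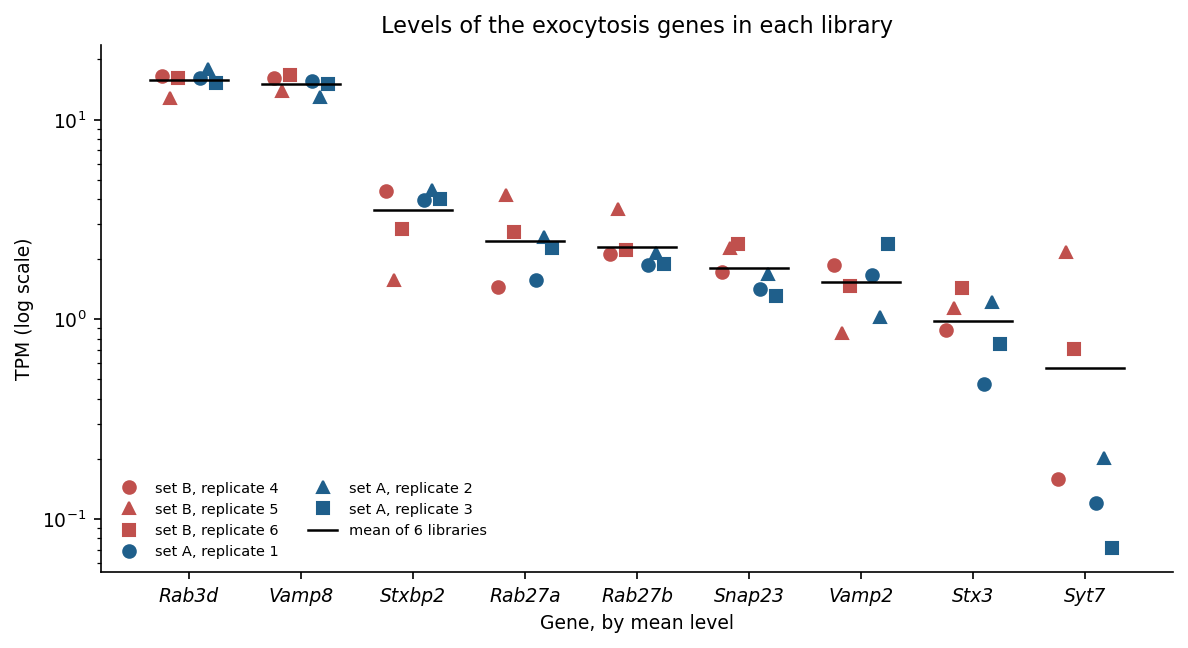
Level of each gene in each library in TPM on a log axis, with set B in red, set A in blue and a bar at the mean of 6 libraries. Rab3d and Vamp8 lie between 12.9 and 17.9 TPM in every library, and the other 7 genes lie at 4.43 TPM or less.

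Rab3d encodes the granule-membrane Rab that is a long-standing marker of zymogen granules. The gene lies on chr9:21907491-21918192 on the minus strand (ENSMUSG00000019066, mm10). Its level was 16.6, 12.9 and 16.2 TPM in set B, against 16.1, 17.9 and 15.3 TPM in set A, with a mean of 15.8 ± 1.69 TPM (SD, n = 6). The 2 sets overlapped, and the lowest library was replicate 5. It rested on 116 to 299 counts per library, of which the expected background was 0.481% overall and 3.24% in replicate 5.

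Vamp8 encodes the vesicle SNARE of zymogen granules that is needed for most stimulated enzyme release in mouse acinar cells. It lies on chr6:72385223-72390703 on the minus strand. Its level was 16.2, 13.9 and 16.8 TPM in set B, against 15.6, 12.9 and 15.0 TPM in set A, with a mean of 15.1 ± 1.44 TPM (SD, n = 6). The sets again overlapped. Counts were 69 to 160 per library, with 0.471% expected from background. Rab3d and Vamp8 did not differ beyond their spread: their difference averaged 0.06 ± 0.19 on the log2(TPM + 1) scale, and Rab3d was the higher in 4 of 6 libraries.

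The spread of both genes across the libraries was low in TPM, but not on other scalings. The coefficient of variation (CV) of TPM was 10.7% for Rab3d and 9.55% for Vamp8, where counting error alone would give 6.61% and 9.15%. Of the 290 genes with mean counts within 1.5 times those of Rab3d, 6.55% had a lower CV, and their median was 21.9%. Of the 740 genes with counts like those of Vamp8, 3.11% had a lower CV, and their median was 25.8%. Per total without ribosomal RNA, added after seeing the data, the CVs were 18.5% and 25.5%, with 18.6% and 24.6% of the like genes lower. Under edgeR's TMM scaling, also added, they were 27.5% and 23.0%, with 42.1% and 32.4% of the like genes lower, and Rab27b had the lowest CV of the 9, at 7.71%.

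The enzyme genes whose products fill the granules had CVs in TPM of 30.9% for Cela1 (elastase), 36.2% for Ctrb1 (chymotrypsinogen), 37.0% for Pnlip (lipase), 44.0% for Cpa1 (carboxypeptidase), 46.1% for Prss2 (trypsinogen) and 46.2% for Cel (carboxyl ester lipase). Cckar, the cholecystokinin receptor, had a CV of 11.3% around 62.8 ± 7.1 TPM (SD, n = 6). Per total without ribosomal RNA the enzyme CVs were 14.1% to 28.3%, a range that holds Rab3d, Vamp8 and Cckar (23.8%). Under TMM scaling the enzyme CVs were 47.3% to 60.6%, and that of Cckar was 25.2%. These spreads were not tested against each other, and the enzyme genes differ from the machinery in abundance. In bulk libraries fewer cells of a type and less RNA per cell cannot be told apart.

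The promoters of these 2 genes are shown because they are the highest of the group. RefSeq promoters (build GRCm38.p6, 250 bases before to 50 after each start) were used for 5 of the 9 genes, whose start was found in a GENCODE M21 transcript (Rab27a, Rab27b, Vamp2 and Syt7 were not used), and were searched on both strands for 5 motifs. Of these 3 are E-boxes, the class of site bound by basic helix-loop-helix factors, among them the acinar factors Bhlha15 and Ptf1a. The E-box CATATG was in 3.91% of all 32851 promoters of that length, the E-box CAGCTG in 16.3% and the E-box CACGTG in 7.15%. The CCAAT box was in 37.4% and the motif TATAAA in 13.6%. None of the 5 motifs occurred in the Rab3d or the Vamp8 window, so neither sequence has capitals. The stretches lie at chr9:21918193-21918433 (Rab3d, 241 bases) and chr6:72390704-72390917 (Vamp8, 214 bases), both on the minus strand and ending at the upstream edge of the counted gene. They differ in base composition: GC content was 71.0% over the 300 bases at Rab3d, above 91.8% of promoters, and 46.7% at Vamp8, above 27.3%.
Rab3d: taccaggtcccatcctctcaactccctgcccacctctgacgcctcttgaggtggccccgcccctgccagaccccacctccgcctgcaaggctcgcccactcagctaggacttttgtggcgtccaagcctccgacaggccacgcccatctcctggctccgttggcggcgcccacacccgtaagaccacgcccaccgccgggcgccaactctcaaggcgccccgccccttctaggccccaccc
Vamp8: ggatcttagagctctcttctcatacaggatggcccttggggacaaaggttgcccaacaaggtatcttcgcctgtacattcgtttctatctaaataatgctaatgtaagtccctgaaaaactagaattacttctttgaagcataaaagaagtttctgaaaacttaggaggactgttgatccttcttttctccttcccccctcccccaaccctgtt

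The other Rab genes were lower. Rab27b encodes a Rab found on zymogen granules, and Rab27a encodes its close relative, best known for moving melanosomes and lytic granules. Rab27b (chromosome 18, 69979131 to 70141605, minus strand) was at 2.13, 3.58 and 2.23 TPM in set B, against 1.86, 2.15 and 1.90 TPM in set A, with a mean of 2.31 ± 0.639 TPM (SD, n = 6). Replicate 5 stood above the other 5 libraries. Rab27b spans 162475 bp, so its background was large there: 69.7% of its replicate 5 counts were expected from background, against 10.8% over the other 5 libraries together.

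Rab27a (chr9:73044854-73097629, plus strand) was at 1.45, 4.20 and 2.72 TPM in set B, against 1.57, 2.57 and 2.27 TPM in set A, with a mean of 2.46 ± 0.998 TPM (SD, n = 6). The sets overlapped, and 53.0% of the counts of replicate 5, the highest library, were expected from background. Over the other 5 libraries that share was 9.45%. Rab27a and Rab27b did not differ beyond their spread, at -0.04 ± 0.24 for Rab27b minus Rab27a on the log2(TPM + 1) scale (adjusted exact sign-flip p = 0.594). That comparison rests on gene length: by the median length of protein-coding transcripts, added after seeing the data, it was 1.19 and positive.

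Vamp2 encodes the synaptobrevin that is also found on zymogen granules. It lies on chr11:69088490-69092384 on the plus strand. Its level was 1.86, 0.856 and 1.46 TPM in set B, against 1.66, 1.03 and 2.38 TPM in set A, with a mean of 1.54 ± 0.558 TPM (SD, n = 6). The sets overlapped and the lowest library was again replicate 5, with 7 counts. Its gene is short, and 1.92% of its counts were expected from background.

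Among the target SNAREs, Stx3 encodes the syntaxin found on granule membranes, and Snap23 encodes the broadly expressed relative of neuronal SNAP-25. Stx3 (chr19:11775118-11819403, minus strand) was at 0.879, 1.14 and 1.44 TPM in set B, against 0.474, 1.22 and 0.748 TPM in set A, with a mean of 0.983 ± 0.350 TPM (SD, n = 6). The sets overlapped. In replicate 5 the expected background was 111% of the Stx3 counts, so Stx3 was not detectable there above background, while over the other 5 libraries it was 12.2%. The Stx3 promoter held TATAAA at -85 on the reverse strand.

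Snap23 (chr2:120567671-120601255, plus strand) was at 1.72, 2.28 and 2.39 TPM in set B, against 1.42, 1.69 and 1.31 TPM in set A, with a mean of 1.80 ± 0.445 TPM (SD, n = 6). Every set B library lay above every set A library, a pattern shared by 33.3% of the 8723 genes tested. No member had set B wholly below set A, which 5.9% of those genes did. Of its replicate 5 counts, 56.2% were expected from background, against 6.74% over the other 5 libraries. The Snap23 promoter held CCAAT at -69 on the reverse strand.

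Stxbp2 encodes Munc18-2, the Sec1/Munc18 protein that partners Stx3 and is at the apical side of epithelial cells. It lies on chr8:3630955-3643644 on the plus strand. Its level was 4.4, 1.57 and 2.82 TPM in set B, against 3.96, 4.43 and 3.98 TPM in set A, with a mean of 3.53 ± 1.12 TPM (SD, n = 6). Set B spread widely and held the lowest library, replicate 5, whereas the set A libraries lay close together and overlapped with replicate 4. Counts were 73 at most and 14 in replicate 5, where 31.9% were expected from background, against 1.13% over the other 5 libraries. The last 30 bases before the RefSeq start of Stxbp2 (position 3631109) are chr8:3631079-3631108 on the plus strand. This stretch lies inside the counted gene, which begins at 3630955, and not upstream of it. The bases are printed because they hold the E-box CACGTG, in capitals, at position -14 from the RefSeq start. A match describes the letters and not a bound site.
Stxbp2: cccacggggtggggccCACGTGgatgacgc

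Syt7 encodes a calcium sensor with high calcium affinity that has been studied on zymogen granules. It lies on chr19:10389090-10453180 on the plus strand. Its level was 0.158, 2.18 and 0.706 TPM in set B, against 0.121, 0.202 and 0.0713 TPM in set A, with a mean of 0.572 ± 0.820 TPM (SD, n = 6). The sets overlapped, with replicates 5 and 6 high. Those 2 libraries also had the highest background, and 58.1% of all Syt7 counts were expected from background. Syt7 exceeded 3 times the background in 0 of 6 libraries, so it was not called above background by that rule at this depth. Its counts were above the expected background in every library but replicate 3, which had 2 counts against 2.53 expected. With background subtracted its mean was 0.241 TPM.

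Rab3d, Vamp8, Stxbp2 and Vamp2 exceeded 3 times their expected background in 6 of 6 libraries, as did 2493 of all 21962 protein-coding genes. Rab27a, Rab27b, Snap23 and Stx3 did so in 5 of 6, and the exception was replicate 5 for each of these 4 genes.

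**Figure D2:**
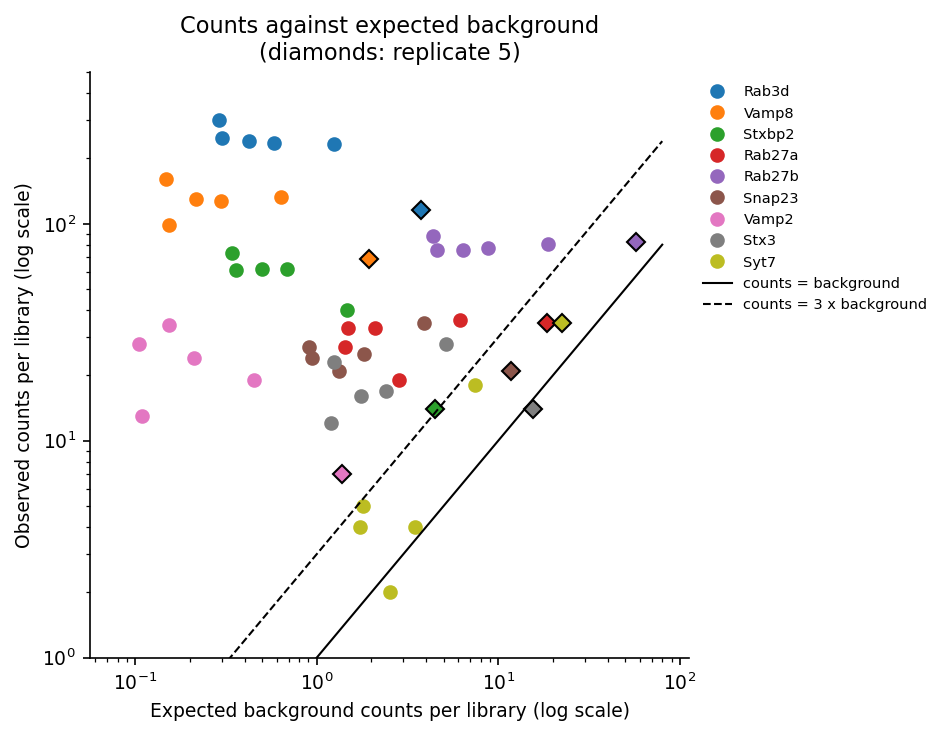
Counts of each gene in each library against the counts expected from background, both on log axes, with replicate 5 drawn as diamonds. Rab3d and Vamp8 lie far above the solid line of equality in all 6 libraries, and Syt7 lies below the dashed line of 3 times background in all 6.

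In order of mean level the genes ran Rab3d, Vamp8, Stxbp2, Rab27a, Rab27b, Snap23, Vamp2, Stx3 and Syt7. Of the 8 neighbouring pairs in that order, 2 differed by more than the SD of their difference on the log2(TPM + 1) scale. Vamp8 exceeded Stxbp2 by 1.87 ± 0.43 in 6 of 6 libraries, and Rab27b exceeded Snap23 by 0.24 ± 0.18 in 5 of 6. The other 6 neighbours did not differ beyond their spread. The order below the top 2 genes depends on the length used: per bp of gene span, Vamp2 stood above Stxbp2, and Vamp8 above Rab3d. On that length Snap23 (0.331 TPM) also stood above Rab27b (0.219 TPM), so that neighbour difference turned. Per transcript length, added after seeing the data, Rab27b stood above Vamp2, and Vamp2 above Stx3 and Rab27a.

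Each member was set against a related gene within each library, in 11 pairs tested over 6 libraries with an exact sign-flip test (two-sided), adjusted by the Benjamini-Hochberg method over the 11. With 6 libraries the smallest p this test allows is 0.03125, and 7 pairs reached it, at an adjusted p of 0.0491. The pair of Vamp8 with Vamp3 is among these 7 but cannot be read, because all Vamp3 exons lie inside another counted gene and Vamp3 had 0 counts. Over the 10 other pairs, a choice made after seeing the data, the adjusted p of the remaining 6 was 0.0521 and none passed 0.05. The calls below are therefore at the edge of what 6 libraries allow.

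Vamp8 and Rab3d stood above the genes they were paired with. Vamp8 exceeded Vamp2 by 2.69 ± 0.26 on the log2(TPM + 1) scale (SD, n = 6) in 6 of 6 libraries (adjusted exact p = 0.0491). The difference was 2.59, 3.01 and 2.85 in set B, against 2.64, 2.78 and 2.24 in set A. It was 1.71 per bp of gene span. Rab3d exceeded Rab3a, its relative on synaptic vesicles, by 2.79 ± 0.30 in 6 of 6 libraries (adjusted exact p = 0.0491). Rab3a averaged 1.53 ± 0.948 TPM in set B and 1.44 ± 0.229 TPM in set A (SD, n = 3 each). Rab3d also exceeded Rab27b by 2.36 ± 0.38 in 6 of 6 libraries (adjusted exact p = 0.0491), and replicate 5 had the smallest difference, at 1.60.

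Snap23 exceeded Snap25, the form of neurons and islet cells, by 1.17 ± 0.34 in 6 of 6 libraries (adjusted exact p = 0.0491). The size was 0.36 per bp of gene span and 2.86 with a pseudocount of 0.1. Snap25 had 30 counts over the 6 libraries, fewer than its expected background, and averaged 0.513 ± 0.629 TPM in set B and 0.0594 ± 0.0525 TPM in set A (SD, n = 3 each). Stx3 lay below Stx4a, the symbol in these files for the basolateral syntaxin 4, by a difference of -0.33 ± 0.32 in 6 of 6 libraries (adjusted exact p = 0.0491). That difference was -0.033 per bp of gene span and 0.22 per transcript length. Stx3 against Stx2, the syntaxin of the apical plasma membrane, differed by 0.33 ± 0.82 with 5 of 6 libraries positive (adjusted exact p = 0.378). Stx2 averaged 0.825 ± 1.40 TPM (SD, n = 6). The difference was -1.12 in replicate 5, which held 36 of the 58 Stx2 counts, and 0.62 without that library. Per bp of gene span it was 0.010.

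Stxbp2 exceeded Stxbp3, the form that partners syntaxin 4, by 1.06 ± 0.61 (adjusted exact p = 0.0764). The difference was 1.48, -0.05 and 1.11 in set B, against 1.49, 1.51 and 0.83 in set A, so it was positive in 5 of 6 libraries and below 0 in replicate 5. With background subtracted it was 1.28, positive in all 6 libraries, with an adjusted exact p of 0.0430.

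Syt7 lay below Syt1, the synaptic calcium sensor, by a difference of -0.53 ± 0.34 in 6 of 6 libraries (adjusted exact p = 0.0491). The expected background was 155% of the Syt1 counts, and with background subtracted the difference was 0.26. Neither gene was above background by the 3-fold rule in any library, so no order of the 2 can be read.

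**Figure D3:**
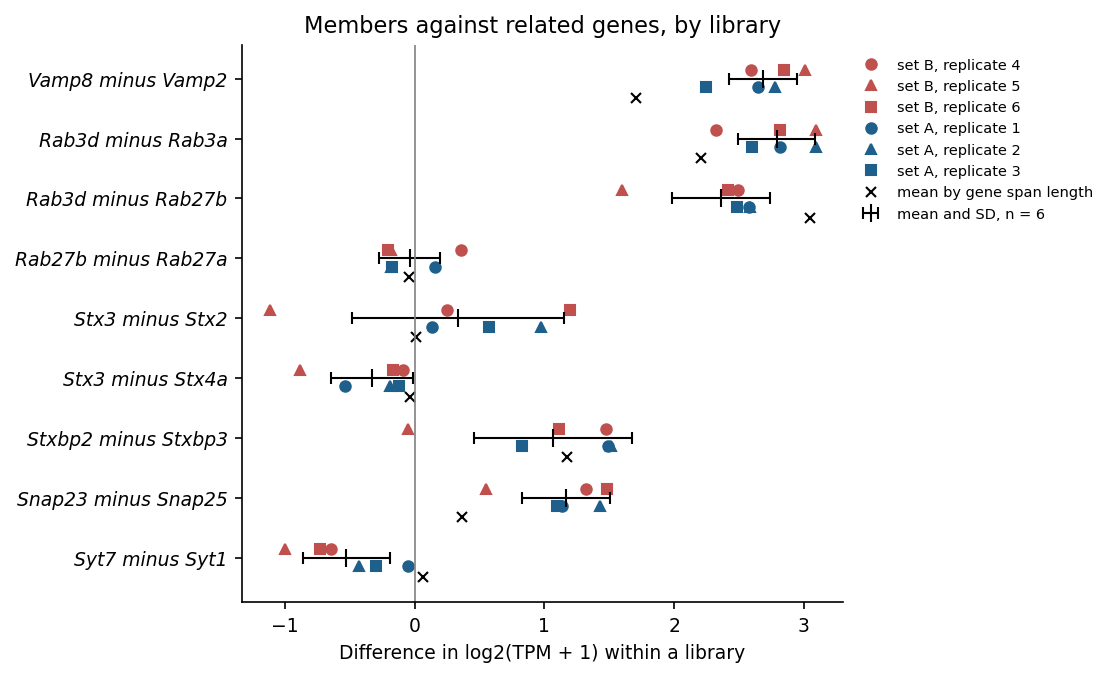
Difference of each member from a related gene within each library on the log2(TPM + 1) scale, with set B in red, set A in blue, the mean and SD of 6 libraries as bars and the mean by gene span length as a cross. Vamp8 minus Vamp2 and Rab3d minus Rab3a lie above 2 in all 6 libraries, and replicate 5 lies apart for Rab3d minus Rab27b.

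Other genes of the pathway were taken from lists of families that bear on these steps, with levels and ranks by merged exon length. In these lists 1 vesicle SNARE, 1 syntaxin, 2 secretory Rab genes and 2 Rab regulators had over 90% of their exons inside another counted gene. Such genes cannot be read, so the ranks do not cover them. Among the 9 vesicle SNARE genes Vamp8 was the highest, followed by Sec22b at 6.22 ± 1.65 TPM and Ykt6 at 5.04 ± 0.772 TPM (SD, n = 6), which act in earlier steps of the secretory pathway. Among the 18 secretory Rab genes Rab3d was the highest, and the only other at 5 TPM or more was Rab10 at 5.45 ± 1.44 TPM, with 69.5% of its exons inside another gene. In the syntaxin and SNAP families no gene reached 5 TPM on that length, though per transcript length some did, Stx5a highest of them at 15.0 TPM (named after its value was seen). Stx3 stood below 9 of the 15 syntaxins. Snap23 was the lowest of the 3 SNAP genes at 1 TPM or more, below Snap47 at 3.29 TPM and, by little, Snap29 at 1.81 TPM, both named after their values were seen. In the Sec1/Munc18 family Stxbp2 stood second to Scfd2, which had 5.02 ± 1.94 TPM with 25.5% expected from background. With background subtracted the 2 were nearly level, at 3.43 TPM for Stxbp2 and 3.45 TPM for Scfd2, and per bp of gene span Stxbp2 was the higher, at 1.78 against 0.175 TPM. None of the 17 synaptotagmins, Syt7 included, exceeded 3 times background in all 6 libraries, where 2493 of all 21962 protein-coding genes did.

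Beyond these families, none of the 28 Rab effectors and priming factors reached 5 TPM, nor did any of the 14 Rab regulators that can be read. Napa, which encodes the alpha-SNAP that acts with NSF to take spent SNARE complexes apart, was at 6.91 ± 2.12 TPM (SD, n = 6). In the exocyst, the tethering complex of the plasma membrane, Exoc4 was at 5.12 ± 3.15 TPM with 37.3% expected from background. By mean TPM per merged exon length, Rab3d and Vamp8 stood above every other gene of these lists that can be read, and they did so per bp of gene span too. Per transcript length Rab3d was at 22.3 TPM and Vamp8 at 18.3 TPM, and Rab11a (20.4 TPM) and Exoc4 (18.7 TPM), named after their values were seen, stood above Vamp8.

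**Figure D4:**
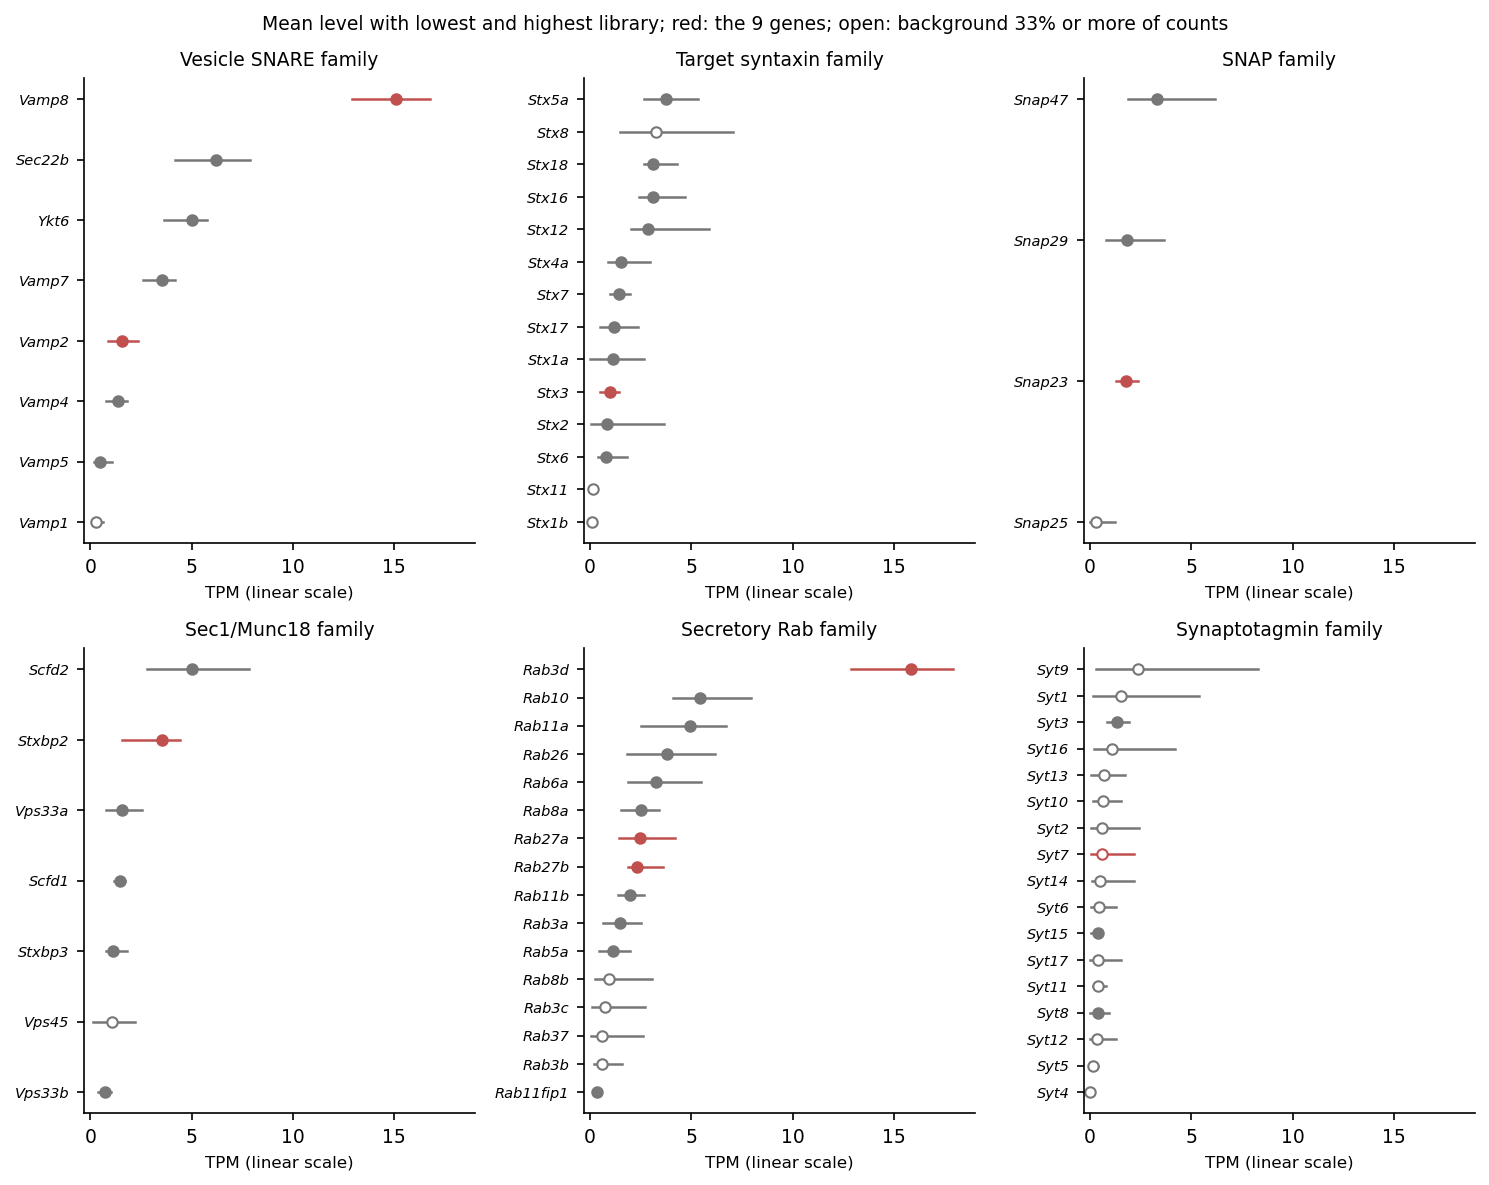
Mean TPM of each gene of 6 families on a linear axis, with lines from the lowest to the highest of 6 libraries, the 9 described genes in red and open circles where 33% or more of counts were expected from background. Vamp8 and Rab3d are the highest of their families, and Syt7 sits among mostly open circles.

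The 2 library sets were compared with edgeR's quasi-likelihood test across 8723 genes, of which 1 gene, or 0.0115%, had an adjusted p under 0.05. At an unadjusted p under 0.05 there were 2258 genes, or 25.9%. Of the 9 members, 8 passed the filter on low counts and 0 of these were called, or had an unadjusted p under 0.05 by edgeR. Syt7 did not pass it. Stxbp2 had the largest difference of the 8, at -0.90 ± 0.44 (log2 set B minus set A ± SE, edgeR adjusted p = 0.227). It was followed by Vamp2 at -0.71 ± 0.49 (adjusted p = 0.392), Rab3d at -0.58 ± 0.29 (adjusted p = 0.244) and Vamp8 at -0.38 ± 0.29 (adjusted p = 0.439).

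Rab27a, Rab27b, Snap23 and Stx3 had differences of -0.19 ± 0.36, -0.13 ± 0.24, 0.03 ± 0.33 and 0.03 ± 0.44, with edgeR adjusted p from 0.771 to 0.969. DESeq2 called 715 genes, or 5.89% of those with an adjusted p, and 0 of the 9 members. Of the members, Rab3d, Stxbp2 and Syt7 had an unadjusted p under 0.05 by that tool, as did 3118 of all 29774 genes it tested. Without replicate 4, edgeR called 2217 of 9801 genes, or 22.6%, and 2 members were among them: Stxbp2 at -1.53 (adjusted p = 0.0262) and Syt7 at 2.57 (adjusted p = 0.0139). In that setting 5.72% of all genes were called lower in set B and 16.9% higher.

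The sign of these differences depends on the scaling. The median of all tested genes was -0.004 under edgeR's scaling, 0.53 in TPM and 1.09 in TPM without ribosomal RNA. Rab3d was at -0.58, -0.11 and 0.44 on these scales, and Vamp8 was at -0.38, 0.11 and 0.66. Stxbp2 was at -0.90, -0.49 and 0.04. Each of these 3 genes stood below the median of all genes on each of the 3 scales. In background-subtracted TPM the median was 0.0057, and Rab3d (-0.10) and Stxbp2 (-0.58) stood below it but Vamp8 (0.12) above. Ribosomal RNA, the sum of islet markers and background were all higher in set B, and their part in the differences was not tested. In replicate 5 the islet sum, at 49.95 TPM, was close to the highest of set A, at 40.5 TPM.

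**Figure D5:**
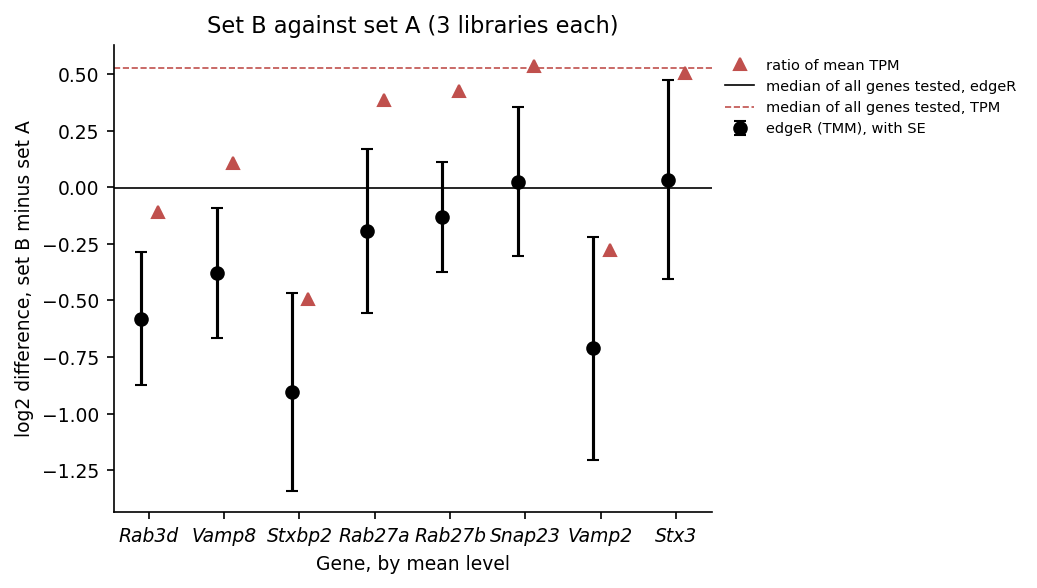
Log2 difference of set B minus set A for the 8 members tested, as edgeR estimates with SE (circles) and as ratios of mean TPM (triangles), with lines at the median of all genes on each scale. No estimate was called, and the members other than Snap23 and Stx3 lie below the line on both scales.

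The genes whose pattern over the 6 libraries was most like that of a member were found among 1096 protein-coding genes at 5 TPM or more, by Pearson correlation of log2(TPM + 1). Only Rab3d, Vamp8, Rab27b and Snap23 had at least 20 counts in every library. The nearest genes were Rpl22l1 (r = 0.99) and Eif5 (r = 0.98) for Rab3d, and Nedd8 and Apoo (r = 0.94 each) for Vamp8. They were Ndufc2 and Arhgap10 (r = 0.99 each) for Rab27b, and Epn1 and Mpv17l2 (r = 0.98 each) for Snap23. The Rab27b level stood apart in replicate 5, where 69.7% of its counts were expected from background. Arhgap10 averaged 5.3 ± 6.6 TPM (SD, n = 6). How far single libraries set these correlations was not tested. With 6 libraries that differ in depth and background, these are descriptions of the closest patterns among many and carry no test.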

How the data were processed

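RNA of 6 libraries of sorted mouse acinar cells was analysed. The deposited files hold whole-number counts for each symbol, not normalized, which the authors made with Trim Galore 0.6.4, FastQC, STAR 2.7.9a, SAMtools and featureCounts on build mm10, per the submitters' processing notes. Tested on the files, counts cover whole gene spans, introns included. Annotation release, strand setting and multi-mapping are not given in the sources used here. Of 1709 protein-coding genes with over 90% of exons inside another gene, 1461 had no counts, so no absence is read from such genes.

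TPM used merged exon lengths from GENCODE M21 (55144 of 55367 symbols, 99.998% of counts) and totals that include ribosomal RNA. Expected background was counts per Mb over 1595 receptor genes without such overlap (10.92 Mb, 6734 counts) times gene span. Because introns are counted, TPM overstates long genes where unspliced RNA or DNA was sequenced. The molecule is labelled genomic DNA.

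Pairs used log2(TPM + 1) and the exact sign-flip test over 64 sign patterns. The adjustment covers 11 pairs, of which 1 is not reported here. The set comparison used edgeR 4.0.16 with TMM and filterByExpr, with DESeq2 1.42.0 and, for pairs, limma 3.58.1 as alternatives, in R 4.3.3 and Python 3.11.15 with scipy 1.17.1. The code was tested on simulated data. The members and lists were chosen with earlier results of these data known. Named were the 9 members, the genes paired with them, up to 4 other genes per list at 5 TPM or more, the 2 nearest patterns of each member with 20 counts or more in every library, and listed markers.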

Additional observations from a re-analysis of the deposited data

Results flagged for a closer look

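In 3 measurements 1 library stood apart from the other 5, by a gap to the nearest that is large for the whole range (Dixon's 95% value for 6 libraries), and each time it was replicate 5 of set B. Chance marks about 1 in 20 such groups where values are normally distributed. The number of groups screened is not given here, so the 3 cannot be set against the number that chance would mark. Rab27b was at 3.58 TPM there, against 1.86 to 2.23 TPM in the others. Syt7 was at 2.18 TPM, against 0.0713 to 0.706 TPM. Rab3d minus Rab27b was 1.60 on the log2(TPM + 1) scale, against 2.42 to 2.59. That difference uses the same replicate 5 level of Rab27b, so the 3 measurements are not independent. Background in replicate 5 was 352 counts per Mb, against 27.0 to 116 in the others, and 69.7% of its Rab27b counts and 64.4% of its Syt7 counts were expected from background.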

How the results depend on the processing

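Pair differences are on the log2(TPM + 1) scale. Vamp8 minus Vamp2, Rab3d minus Rab3a, Rab3d minus Rab27b, Snap23 minus Snap25 and Stxbp2 minus Stxbp3 kept their direction under every alternative run. With 5 libraries the smallest exact p is 0.0625, so no pair can pass. Leaving out each library in turn gave 2.62 to 2.77 for Vamp8 minus Vamp2, 3.97 to 4.04 for Vamp8 minus Vamp3, 2.73 to 2.88 for Rab3d minus Rab3a, 2.32 to 2.51 for Rab3d minus Rab27b, -0.38 to -0.22 for Stx3 minus Stx4a, 1.11 to 1.29 for Snap23 minus Snap25 and -0.62 to -0.43 for Syt7 minus Syt1. Adjusted over 10 pairs without Vamp3, the values 2.69, 2.79, 2.36, -0.33, 1.17 and -0.53 of the other 6 pairs had p = 0.0521 by the exact test. By gene span length Stx3 minus Stx4a was -0.033 and no longer passed, Stxbp2 minus Stxbp3 (1.18) passed, Syt7 minus Syt1 turned to 0.067, and 2 of the 9 places in the order were kept. With background subtracted Stxbp2 minus Stxbp3 was 1.28 and passed, and Syt7 minus Syt1 turned to 0.26. With no pseudocount 6 pairs no longer passed, at 3.37 for Vamp8 minus Vamp2, 3.52 for Rab3d minus Rab3a, 2.81 for Rab3d minus Rab27b, -0.62 for Stx3 minus Stx4a, 3.31 for Snap23 minus Snap25 and -1.54 for Syt7 minus Syt1. Vamp8 minus Vamp3 has no value there, and Snap25 had no counts in replicate 2, which leaves 5 libraries. By transcript length, chosen after seeing the data, 4 places were kept, Rab27b minus Rab27a turned to 1.19 and Stx3 minus Stx4a to 0.22, and these pairs no longer passed: Vamp8 minus Vamp2 (2.42), Vamp8 minus Vamp3 (4.26), Rab3d minus Rab3a (3.08), Rab3d minus Rab27b (1.64), Snap23 minus Snap25 (0.97) and Syt7 minus Syt1 (-0.093). By limma Stxbp2 minus Stxbp3 passed at 1.06. With no pseudocount and by transcript length the smallest exact p was still 0.03125, but it adjusted to 0.0625 and 0.0573. In those 2 settings even a pair at the smallest exact p could not pass. The cause of the other changes was not tested.

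Between the sets edgeR called 1 gene, DESeq2 715 and edgeR with no filter on low counts 993, with 0 members each. Leaving out each library gave 0 to 2217 genes, with 735 of 9057 without replicate 5 and 2217 of 9801 without replicate 4, and 0 to 2 members. The difference of Snap23 turned to -0.12 by DESeq2 and -0.25 with no filter, and that of Stx3 to -0.11 and -0.23. Leaving out each library gave -0.17 to 0.12 for Snap23 and -0.31 to 0.30 for Stx3. No paired analysis was possible because all libraries belong to 1 group and no replicate number recurs. Depth limits Syt7, Stx3 and Vamp2 most, with 2, 12 and 7 counts in their lowest libraries.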
